A study of Homo sapiens with 6 samples.

Results

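The p53 family of transcription factors, its inhibitors and a set of its best known target genes were followed in a pair of sublines of T47D, an estrogen receptor positive luminal breast cancer cell line that is known to carry a mutated p53 gene. The 9 genes were TP63 and TP73, which encode the p53 relatives p63 and p73, MDM2 and MDM4, which encode inhibitors of the family, and the targets CDKN1A, SFN, GADD45A, BBC3 and PERP. They were found by their symbols, and every gene spot on the arrays that carries one of these symbols was used. All 9 genes were present, with 13 of the 34127 gene probes and 31 of the 43118 gene spots, among 25940 gene names in all. Of the 13 probes, 12 entered the test, and the remaining one, for TP73, was too dim.

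p53, p63 and p73 bind the same kind of DNA element through closely related DNA-binding domains. p53 responds to DNA damage and other stress, whereas p63 is needed for stratified epithelia and marks the basal layer of the mammary gland, where it drives keratins, integrins and desmosome genes. MDM2 ubiquitinates p53, MDM4 binds and masks its activation domain, and MDM2 is itself a p53 target. CDKN1A encodes p21, which blocks cyclin-dependent kinases, SFN encodes 14-3-3 sigma, which holds cells at G2 and is made mainly in epithelia, and GADD45A acts in growth arrest and DNA repair. BBC3 encodes the apoptosis inducer PUMA, and PERP encodes a tetraspan membrane protein of desmosomes that is a target of both p53 and p63.

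The pure luminal line (pLUM) and the pure luminobasal line (pLB) were both derived from xenografts of T47Dco cells grown in mice and were purified by repeated FACS. pLUM cells came from a tumor grown under estradiol (E), were sorted as CLD3+ CD49f- and received 1 nM E for 72 h before RNA collection. pLB cells came from a tumor grown under E plus progesterone (P), were sorted as CLD3- CD49f+ and were kept estrogen-withdrawn (EWD). The cells of both lines were then fixed, stained for cytokeratin 5 (CK5) and sorted, and total RNA of 3 sorts of each line was hybridized to 1-colour Agilent arrays (n = 3 arrays per line). Which CK5 fraction was hybridized is not given in the sources used here. Each line is a single derivative, so the errors and p-values below cover the spread between sorts. Line, tumor of origin and hormone coincide and cannot be told apart.

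On the 6 arrays, 21285 to 22775 probes were well above background by the scanner software, and no gene spot was saturated. The 75th percentile of the spot intensities was 474 to 566 in pLUM and 449 to 869 in pLB. All 3 pLUM arrays and pLB replicate 1 were on one slide, and pLB replicates 2 and 3 were on another. With the slide as a block, a difference is that of pLB replicate 1 from the pLUM arrays of its slide, and that value is given beside each gene that moved. Of 8 luminal markers, 7 were called lower in pLB by their brightest probe (all but KRT18). All 7 luminobasal markers were called higher, and both are the direction that the names of the lines imply. CLDN3, ITGA6 and KRT5 encode the sorting antigens CLD3, CD49f and CK5, so they do not stand apart from how the lines were made. KRT8 was called lower on its brightest and on another probe, but higher on a further one, by 1.89 (limma, adjusted p = 4.49e-05). Markers of other cell types were often too dim to be tested. Called higher in pLB were 2 of 3 tested fibroblast genes of 8 (THY1 and COL1A2), 1 of 2 endothelial genes of 5 (VWF) and 1 of 6 leukocyte genes of 7 (CD68). Over all tested genes, 22.7% were called higher. THY1, COL1A2 and VWF were well above background on no pLUM array. The fibroblast gene COL1A1 differed by -0.56 and was not called. A second probe of the leukocyte gene PTPRC was called lower, at -1.20 (limma, adjusted p = 0.00453). The summed fibroblast signal, in percent of the 75th percentile, was 79.0 to 98.3 in pLUM and 127 to 182 in pLB, the endothelial one 10.1 to 14.5 and 12.6 to 25.6, and the leukocyte one 61.3 to 78.7 and 53.3 to 70.9. The fibroblast genes COL3A1, PDGFRA, PDGFRB, LUM and DCN were well above background on no array. Whether such cells contribute to the differences below was not tested.

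Signals below are on the log2 scale, with the 75th percentile of an array set to 0, so that 1 unit is a 2-fold difference, and a positive difference is higher in pLB. A probe was called where limma gave at least a 2-fold difference with a Benjamini-Hochberg adjusted p under 0.05 over all 23105 tested probes. The lines were far apart: 21.9% of tested probes were called higher and 23.7% lower in pLB, and on 34.3% every pLB array lay above every pLUM array. Scaled to the spike-in controls, these counts shifted from 5054 higher and 5476 lower to 6131 higher and 4363 lower, and the median of all probes shifted from -0.01 to 0.25. With each gene represented by its brightest probe, 22.7% of 17670 genes were called higher and 23.0% lower. A call is therefore common in this comparison, and the size of a change is read below against all other probes.

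The probe sequences show which part of a transcript each signal comes from, and the 6 probes that lie in coding sequence are given here, 5′ to 3′, with positions in hg19 as the files give them. Each is 60 bases long, and in the MDM2 probe the capitals mark the stop codon.
TP63: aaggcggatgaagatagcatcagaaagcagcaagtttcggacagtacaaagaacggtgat
TP73: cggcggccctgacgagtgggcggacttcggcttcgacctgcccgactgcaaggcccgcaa
MDM2: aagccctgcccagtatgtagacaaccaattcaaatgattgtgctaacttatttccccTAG
MDM4, first probe: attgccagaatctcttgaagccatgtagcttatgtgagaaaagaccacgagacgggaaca
MDM4, second probe: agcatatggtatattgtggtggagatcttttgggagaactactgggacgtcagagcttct
CDKN1A: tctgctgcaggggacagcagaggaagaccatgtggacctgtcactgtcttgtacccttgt

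The TP63 probe (A_24_P273756, chr3:189586433-189586492) encodes residues just after the DNA-binding domain, a stretch shared by forms with the full activation domain (TA) and forms without it (ΔN). The files list it for NM_003722, NM_001114979, NM_001114982 and NM_001114978, so it does not separate TA from ΔN transcripts. The TP73 probe (A_24_P413470, chr1:3649541-3649600) encodes the C-terminal end of the α form. The RING domain, through which MDM2 and MDM4 pair, is read at its end by the MDM2 probe (A_33_P3361707, chr12:69233570-69233629) and at its start by the first MDM4 probe (A_23_P103503, chr1:204518623-204518682). The second MDM4 probe (A_33_P3389376, chr1:204499870-204499929) encodes part of the p53-binding domain. The CDKN1A probe (A_24_P89457) lies at chr6:36652178-36652237.

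TP63 had the largest fitted difference of the 9 genes, except with normexp background correction, under which SFN (4.74) and PERP (3.57) were ahead of it. Its signals in pLUM were -5.19, -6.38 and -7.72, and in pLB -0.70, -0.53 and 0.19. The scanner software put the probe well above background on all 3 pLB arrays but on 0 of 3 pLUM arrays, and the lines did not overlap. The fitted log2 difference was 6.09 with SE 0.60 (limma, adjusted p = 0.000111). Because pLUM gives only an upper limit, the difference is better stated as at least 32.3-fold, the mean of pLB over the lowest signal well above background on the pLUM arrays, or the probe's own where higher. With that correction, which subtracts a modelled background and compresses dim signals, this bound was 5.60-fold and the fitted difference 2.51. Against the pLUM arrays of its own slide, pLB replicate 1 was higher by 5.73. In these bulk samples, fewer cells that make p63 and less TP63 RNA per cell cannot be told apart.

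For TP73, the other family member, no difference was called. It gave -4.58, -4.61 and -4.09 in pLUM and -4.52, -4.81 and -3.86 in pLB, all well above background but dim. The lines overlapped, and the difference was 0.03 with SE 0.28 (limma, adjusted p = 0.936), between -0.49 and 0.28 over all alternatives tried. The remaining TP73 probe (A_33_P3296831, chr1:3645911-3645970), listed for NM_001204186 and 3 further transcripts, was well above background only on pLUM replicate 2, and its difference was not tested.

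**Figure D1:**
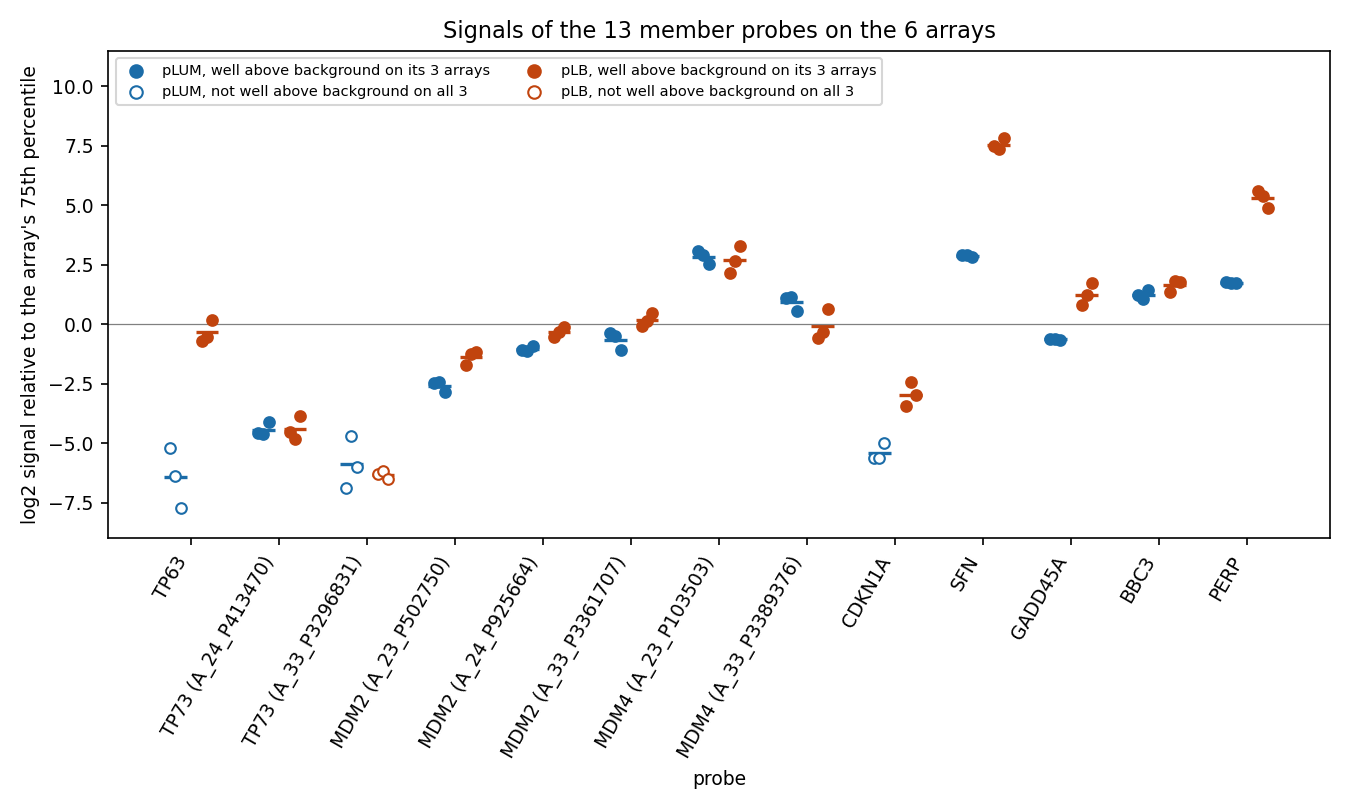
Log2 signal with the 75th percentile of an array at 0 (y axis) for the 13 probes of the 9 genes (x axis), with a point per array (pLUM blue, pLB red), open where the probe was not well above background on all 3 arrays of the line, and a bar at the mean of each line. TP63, SFN and PERP show the widest gaps between the lines, and the TP73 probes, BBC3 and both MDM4 probes overlap.

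MDM2 was moderately higher in pLB on each of its 3 probes, though only one of them reached the 2-fold limit. On the probe of the RING end, the brightest, signals were -0.38, -0.49 and -1.07 in pLUM and -0.08, 0.13 and 0.49 in pLB. The difference of 0.83 with SE 0.25, or 1.78-fold, had an adjusted p of 0.0213 by limma and was not called because it was under 2-fold. On the probe spotted 10 times (A_23_P502750, chr12:69233822-69233881), which starts downstream of the stop codon of the RING probe, signals were -2.46, -2.41 and -2.86 in pLUM and -1.70, -1.26 and -1.16 in pLB. This difference of 1.20 with SE 0.22, or 2.30-fold, was called (limma, adjusted p = 0.00229). The probe farthest downstream (A_24_P925664, chr12:69238891-69238950) read -1.10, -1.12 and -0.92 in pLUM and -0.55, -0.32 and -0.13 in pLB, a difference of 0.71 with SE 0.18, or 1.64-fold (limma, adjusted p = 0.00988). On all 3 probes every pLB array lay above every pLUM array. The call on the probe spotted 10 times was lost with normexp correction (0.62, adjusted p = 0.0918 by limma) and with the slide as a block (0.87), and the slide block gave 0.57 for the RING probe and 0.49 for the probe farthest downstream.

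The other inhibitor, MDM4, read differently on its 2 probes. On the RING probe, also spotted 10 times, signals were 3.07, 2.90 and 2.54 in pLUM and 2.17, 2.65 and 3.28 in pLB. The pLUM arrays lay within the range of the pLB arrays, and the difference was -0.14 with SE 0.30 (limma, adjusted p = 0.708), or 0.11 with spike-in scaling. On the probe of the p53-binding domain, signals were 1.12, 1.15 and 0.55 in pLUM and -0.56, -0.32 and 0.66 in pLB. That difference of -1.02 with SE 0.35 was just past both limits (limma, adjusted p = 0.0354), although pLB replicate 3 lay above pLUM replicate 3. It was not called under 10 of 18 alternatives, among them leaving out pLUM replicate 1, pLUM replicate 2, pLB replicate 1 or pLB replicate 2, and without pLB replicate 3 it was -1.38. With the slide as a block it was -1.50 and called (limma, adjusted p = 0.0246).

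Within each array, the RING probe of MDM4 minus the p53-binding probe was 1.95, 1.75 and 1.99 in pLUM and 2.73, 2.97 and 2.62 in pLB. In pLUM this gap was 1.90 ± 0.13 (SD, n = 3), and in pLB, without overlap, it was 2.77 ± 0.18 (SD, n = 3). The change of 0.88 between the lines had an exact permutation p of 0.1, two-sided, which is the smallest that 3 against 3 arrays allow. The files list the p53-binding probe for NM_001204171, NM_002393 and NR_024171, and the RING probe for these and for NM_001204172. For the 3 MDM2 probes, the corresponding changes of the gap were 0.49, 0.37 and -0.12 (exact permutation p of 0.1, 0.1 and 1). These 4 gaps were the only ones computed, and none can reach an adjusted p under 0.05.

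Among the arrest genes, CDKN1A rose in pLB from a level near background. Its signals were -5.63, -5.64 and -5.01 in pLUM and -3.45, -2.44 and -2.97 in pLB, without overlap. The difference was 2.47 with SE 0.30, or 5.56-fold (limma, adjusted p = 0.000321), and 1.98 with the slide as a block. It was well above background on all 3 pLB arrays but on only 1 of 3 from pLUM. With normexp correction the difference fell to 0.44 and was not called (limma, adjusted p = 0.347). The call was kept under 16 of the 17 alternatives that gave a value; the filter that asks for all 6 arrays removes the probe.

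SFN had the largest difference among those of the 9 genes that were well above background on all 6 arrays. Its probe (A_33_P3389286, chr1:27190888-27190947, NM_006142) gave 2.91, 2.89 and 2.82 in pLUM and 7.48, 7.35 and 7.84 in pLB. The SD over the 3 pLUM arrays was 0.05, and the lines were far apart. The difference was 4.68 with SE 0.18, or 25.7-fold (limma, adjusted p = 1.59e-06), 4.61 with the slide as a block and between 4.37 and 4.94 over 18 alternatives. Of all tested probes, 455 had a larger fitted rise.

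GADD45A (A_23_P23221, chr1:68153371-68153430, NM_001924 and 2 further transcripts) gave -0.62, -0.61 and -0.67 in pLUM and 0.79, 1.24 and 1.71 in pLB. The pLUM arrays were nearly the same, whereas pLB spread over almost 1 unit (SD 0.46). The difference was 1.88 with SE 0.25, or 3.68-fold (limma, adjusted p = 0.000444). With the slide as a block it was 1.43, and it kept its call under all 18 alternatives.

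The apoptosis gene BBC3 and the adhesion gene PERP parted. BBC3 (A_23_P382775, chr19:47724174-47724233, minus strand) gave 1.23, 1.04 and 1.43 in pLUM and 1.34, 1.81 and 1.78 in pLB, and the lines overlapped. Its difference of 0.41 with SE 0.20, or 1.33-fold, was not called (limma, adjusted p = 0.112), and with the slide as a block it was 0.11. PERP (A_23_P214950, chr6:138412056-138412115, minus strand) gave 1.78, 1.75 and 1.72 in pLUM and 5.61, 5.41 and 4.88 in pLB. All pLB arrays were far above pLUM, by 3.55 with SE 0.22, or 11.7-fold (limma, adjusted p = 1.15e-05), and by 3.86 with the slide as a block. It kept its call under all 18 alternatives, and 851 probes had a larger fitted rise.

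Counted by their brightest probe, 5 of the 9 genes (TP63, CDKN1A, SFN, GADD45A and PERP) were called higher in pLB, against 22.7% of all genes, and 0 were called lower, against 23.0%. TP73, MDM2, MDM4 and BBC3 were not called. TP63 passed the filter on dim probes through its pLB arrays alone, and CDKN1A was well above background on 1 pLUM array. Of the 7 genes well above background on all 6 arrays, 3 were called higher and 0 lower. With that filter, 3741 probes in all were called higher and 3899 lower. The share of all genes called under it was not computed, here or for the lists below. The median difference of the 9 was 1.88, and that of all genes was 0.04. Over the 12 tested probes, 6 were called higher and 1 lower, and on 8 of 12 every pLB array lay above every pLUM array, against 34.3% of all probes. On 0 of 12 every pLB array lay below, against 33.8% of all probes. Probes of one gene are not independent in these counts. The spread between pLB arrays exceeded that between pLUM arrays on 10 of the 12 probes. The pLB arrays lay on both slides and the pLUM arrays on one, so slide and line cannot be told apart in this spread. Over all tested probes, the median SD was 0.21 in pLUM and 0.29 in pLB.

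**Figure D2:**
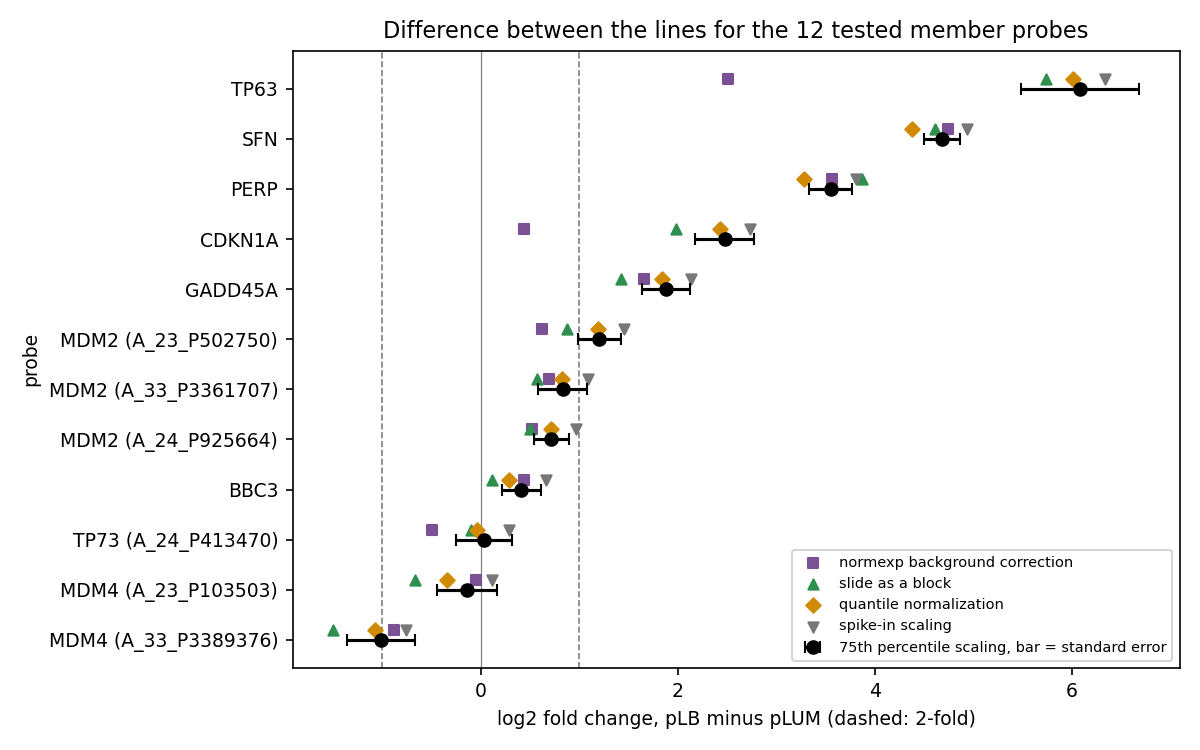
Log2 difference of pLB minus pLUM (x axis, dashed lines at 2-fold) for the 12 tested probes (y axis), as a black point with its standard error and as coloured symbols under 4 other treatments of the same arrays. SFN, PERP and GADD45A stay beyond the 2-fold line under every treatment shown, while normexp correction brings TP63 to 2.51 and CDKN1A to 0.44.

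**Figure D3:**
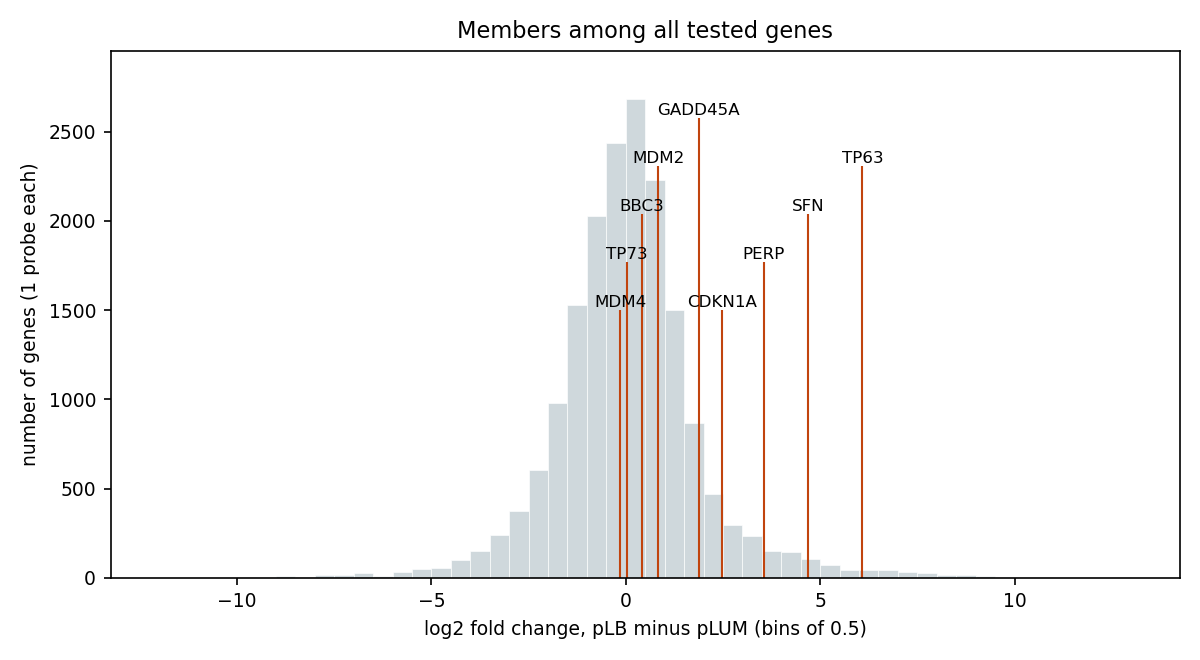
Number of genes (y axis) by log2 difference of pLB minus pLUM (x axis, bins of 0.5) over 17670 genes with 1 probe each, with a red line at each of the 9 genes; the height of the lines has no meaning. TP63, SFN and PERP lie in the upper tail, and MDM4, TP73 and BBC3 lie in the bulk of the genes.

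By Pearson correlation over the 6 arrays, the genes whose signals ran most like that of TP63 were SYT14, TTLL4 and IL15, each with r = 0.999 among 13153 tested genes with a symbol in RefSeq and a value on every array. With 6 arrays in 2 far apart lines such values are common, and 1920 genes had r over 0.95. TP63 was well above background on no pLUM array, so which genes rank first rests partly on signals near background. The correlation is given as a description.

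The promoters of the 9 genes were searched for a full p53 family response element, which is a pair of 10-base half-sites. The search allowed no spacer and up to 2 mismatches over the 20 bases, with the core C and G of each half-site kept; the element reads alike on both strands. Windows of 300 bases, from 250 before to 50 after each start in RefSeq (GRCh38.p14), were given for 8 of the 9 genes, and GADD45A had none. Of 35116 windows of all genes, 0.285% held such a match, as did 3 of 13 windows of the 9 genes. A pair of these are overlapping MDM2 windows with the same match, so there were 2 matches, in 2 of the 8 genes (MDM2 and TP73), against 0.359% of all genes with a window. The 250 bases before the start are shown with the match in capitals, MDM2 on the plus strand of chr12:68808767-68809016 and TP73 on the plus strand of chr1:3690422-3690671.
MDM2: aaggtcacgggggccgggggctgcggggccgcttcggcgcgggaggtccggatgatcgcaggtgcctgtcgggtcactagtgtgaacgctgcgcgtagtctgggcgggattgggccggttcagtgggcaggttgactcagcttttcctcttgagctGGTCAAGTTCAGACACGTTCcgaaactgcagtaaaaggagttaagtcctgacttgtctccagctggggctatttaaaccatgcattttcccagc
TP73: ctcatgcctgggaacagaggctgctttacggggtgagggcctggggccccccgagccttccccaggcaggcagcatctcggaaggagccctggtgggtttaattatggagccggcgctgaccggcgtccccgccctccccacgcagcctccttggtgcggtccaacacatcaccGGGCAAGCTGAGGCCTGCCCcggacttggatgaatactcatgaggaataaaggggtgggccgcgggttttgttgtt

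In MDM2 the match ends 74 bases before the internal start, the one known to respond to p53, and in TP73 it ends 56 bases before the internal start that gives ΔN forms. Both matches have 2 mismatches. Of the genes that hold a match, MDM2 was higher in pLB by 0.71 to 1.20 on its probes and TP73 differed by 0.03. The windows of CDKN1A, SFN, PERP, TP63, BBC3 and MDM4 held none, which says only that these letters are not in these windows. Each of these genes had a single window, so any other start, such as an internal one of TP63, was not searched. Among the further p53 targets counted next, 3 of 32 with a window held a match, against 0.359% of all genes. Of these, named after their values were seen, AEN was 2.45-fold higher in pLB and called. FAS at 1.89-fold and DDB2, with a log2 difference of -0.29 on one probe and 0.36 on another, were not called.

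Other genes of the pathway were counted in 6 lists. The lists were chosen with earlier results of these data known, so their counts are given as a description. Where a fold is given as at least a value, that bound depends on the background subtraction used. With normexp correction the TP63 bound fell from 32.3-fold to 5.60-fold, and no such bound is given for the genes of the lists. Of 39 further p53 targets, 37 were tested, and they moved both ways: 11 were called higher in pLB, 6 lower and 20 not, with a median difference of 0.39. These are 29.7% and 16.2% of the tested genes, against 22.7% and 23.0% of all genes. Of the 33 targets well above background on all 6 arrays, 9 were called higher and 5 lower. RRM2B, not called on its brightest probe, was called lower on another, at -1.56 (limma, adjusted p = 0.000206). IGFBP3, which binds insulin-like growth factors, was at least 165-fold higher, the cytokine gene LIF 12.9-fold and GDF15, a stress-induced cytokine, 6.02-fold. A second LIF probe, well above background on 1 of 3 arrays from pLUM, differed by 0.82 and was not called (limma, adjusted p = 0.240). In the other direction, TP53INP1, a cofactor in p53-dependent apoptosis, fell by 3.31 on the log2 scale, well above background on 2 of 3 pLB arrays. POLH, a DNA polymerase that reads past UV lesions, fell by 2.27, the ubiquitin ligase gene RCHY1 by 1.97 and PIDD1, which encodes a scaffold of caspase activation, by 1.82.

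Of the regulators and cofactors of the family, 7 of 28 tested genes were called higher, 5 lower and 16 not, with a median difference of 0.21. These shares, 25.0% higher and 17.9% lower, are near the 22.7% and 23.0% of all genes. HIPK2, not called on its brightest probe, was called higher on its others, by 3.25 and 1.39 (limma, adjusted p = 0.000297 and 0.00972). These were well above background on no pLUM array and on 1, respectively. TRIM24, also not called, was called lower on another probe, at -3.34 (limma, adjusted p = 0.00320). That probe was well above background on no pLB array. CDKN2A, whose locus makes the MDM2 inhibitor ARF as well as the kinase inhibitor p16, was 10.3-fold higher in pLB. The ribosomal protein gene RPL11, whose product also binds MDM2, was 3.63-fold higher, ING1 2.87-fold and YAP1, a coactivator of p73, 2.82-fold. The damage kinase gene ATR was 3.15-fold lower and CHEK2 2.51-fold lower, as were the acetyltransferase gene KAT2B at 3.15-fold and USP7, which encodes a deubiquitinase of p53 and MDM2, at 2.88-fold, well above background on 2 of the pLB arrays.

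By their brightest probe, all 19 epidermal p63 targets were called higher in pLB, against 22.7% of all genes, with a median difference of 4.47. Only 11 of them were well above background on all 6 arrays, and these 11 were all higher, while 6 were well above background on no pLUM array. KRT5 and KRT14, the basal keratin pair, were at least 1761-fold and 553-fold higher. JAG1, a Notch ligand, was at least 205-fold and COL17A1, a hemidesmosome collagen, at least 290-fold higher. KRT5 belongs to the markers by which the lines were recognised, and ITGA6 encodes CD49f, one of the sorting antigens, so these genes do not stand apart from how the lines were made. The paper also lists JAG1 and CDH3 as higher in pLB, so they were known to differ when this list was chosen. IGFBP3 is in this list and in that of the p53 targets. DST did not read alike on its probes. It was called higher on its brightest probe (4.10) and on another (3.18). A further DST probe, well above background on all 6 arrays, was called lower, at -1.28 (limma, adjusted p = 0.00151).

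The cell cycle partners of CDKN1A gave 8 genes higher (47.1%, against 22.7% of all genes), 2 lower (11.8%, against 23.0%) and 7 not called of 17, with a median of 0.81. With normexp correction, 5 were called higher and 1 lower. Of the 15 genes well above background on all 6 arrays, 6 were called higher and 2 lower in the main fit. CDK6 was 126-fold higher in pLB, CCND2, its cyclin D2 partner, at least 30.0-fold and the p57 gene CDKN1C 6.88-fold. CDKN1B, which encodes p27, fell by 1.44 on the log2 scale and CDKN2C, which encodes p18, by 1.19. A second CDKN1B probe differed by 0.37 and was not called (limma, adjusted p = 0.0829). CDKN2A, counted above, is also in this list.

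All 8 tested desmosome genes of 10 were called higher, against 22.7% of all genes, with a median of 2.74. With quantile normalization, 7 were called. In the main fit, 6 of the 8 were well above background on all 6 arrays, and these 6 were all called higher. DSG3 was well above background on no pLUM array. DSG1 and DSC3 were too dim to be tested. DSG3 was at least 201-fold higher and PKP1 136-fold, PKP1 being dim on 2 of 3 pLUM arrays. DSP was 8.31-fold, DSC2 7.14-fold, DSG2 6.23-fold, PKP2 5.47-fold, JUP 3.91-fold and PKP3 2.39-fold higher. PKP1 and DSG3 are counted among the p63 targets too.

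Of the 6 paralogs of SFN, 5 were called higher (83.3%, against 22.7% of all genes), with a median of 1.52. YWHAZ was 3.64-fold, YWHAQ 3.26-fold, YWHAE 3.05-fold, YWHAH 2.70-fold and YWHAG 2.49-fold higher. A second YWHAE probe differed by 0.22 and was not called (limma, adjusted p = 0.425). YWHAB was 1.34-fold and not called (limma, adjusted p = 0.0554). With normexp correction, 3 of the 6 were called. SFN itself differed by 25.7-fold.

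**Figure D4:**
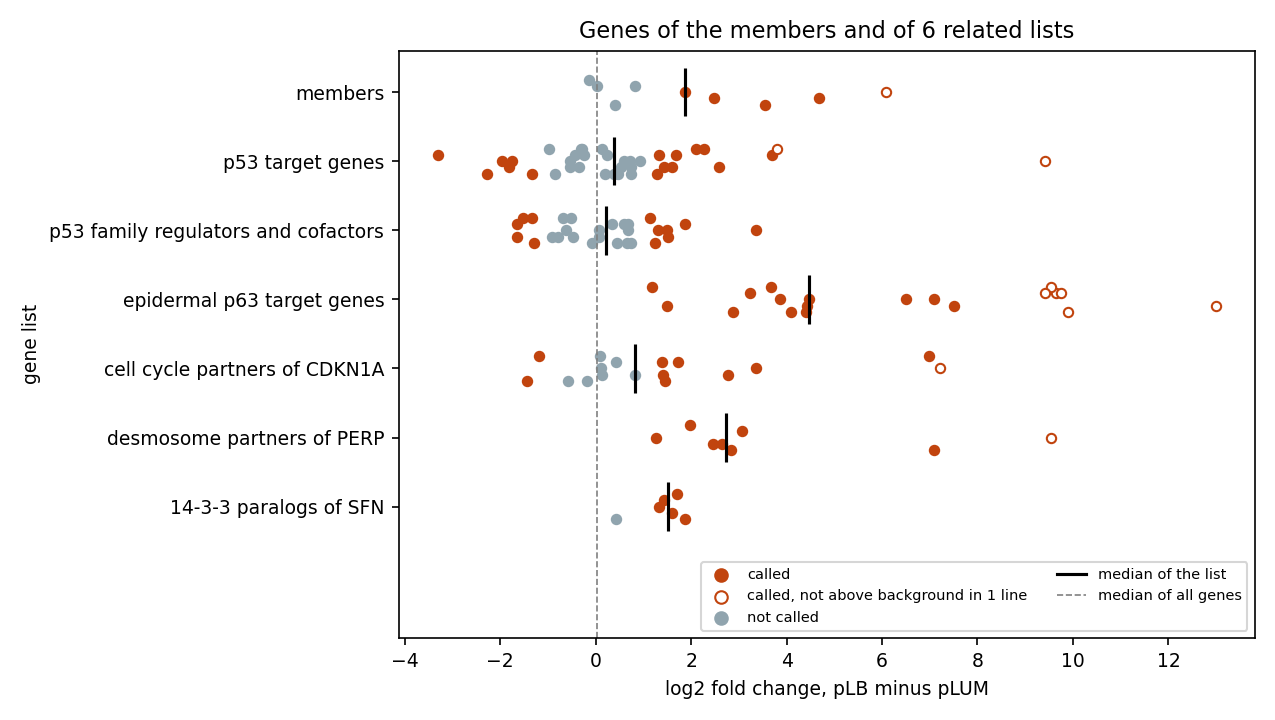
Log2 difference of pLB minus pLUM (x axis) for each tested gene of the 9 genes and of 6 related lists (y axis), red where called, open where no array of one line was well above background, and grey where not called, with a black bar at the median of each list. The p53 targets and the regulators spread to both sides of the dashed median of all genes, and every tested p63 target and desmosome gene lies to its right.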

How the data were processed

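Per the file headers, the authors deposited 1 scanner file per array from Agilent Feature Extraction 10.10.1.1, with the intensity of each spot on a linear scale, background-subtracted and detrended within the array, and without normalization between arrays. The submitters' processing notes name Partek, with no role given. Of the deposited intensity values, control spots and spots marked as outliers (296 to 387 per array) were left out here. The log2 intensity of every other spot was scaled by subtracting that of the array's 75th percentile, and a probe took the mean of its spots. The lines were compared by limma 3.58.1 under R 4.3.3 (lmFit, then eBayes, with Benjamini-Hochberg adjustment over 23105 probes) for probes that 3 or more of the 6 arrays showed well above background. A dim spot limits a fold to a bound, and the number of arrays limits the precision. The fit was tested on simulated data. A gene was represented by its probe of highest mean. Named were all probes of the 9 genes and, per list, up to 4 called genes of largest change in each direction, with all genes in lists of at most 10; one gene so named is not reported here. The genes and lists were chosen with earlier results of these data known. The alternatives were other background corrections, scalings, filters and floors, the methods' t-test, no fold limit, slide or replicate blocks, the mean of a gene's probes and each array left out. Positions of probes are those of the files (hg19), and promoters are from RefSeq (GRCh38.p14).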

Additional observations from a re-analysis of the deposited data

How the results depend on the processing

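Of the 9 genes, TP63, SFN, GADD45A and PERP were called under each alternative that could be computed for them. The filter that asks for all 6 arrays removed TP63 and CDKN1A and left 3 genes called higher (SFN, GADD45A and PERP) and 11 epidermal p63 targets. With normexp correction, CDKN1A was not called (4 genes higher), 3004 probes were called higher, and the lists gave 5 cell cycle partners higher and 1 lower and 3 paralogs of SFN higher. Spike-in scaling added MDM2 (6 genes higher) and gave 1 cell cycle partner lower, as did the mean of a gene's probes. With no fold limit, MDM2 was also added, and 17 p53 targets were called higher and 10 lower, and 11 regulators lower; the cause lies in the limit itself, and for normexp and spike-in scaling the cause was not tested. No probe of the 9 genes that was called changed direction. Among those not called, the MDM4 RING probe went from -0.14 to 0.11 with spike-in scaling and 0.12 without pLB replicate 1. The tested TP73 probe, also not called, went from 0.03 to -0.49 with normexp correction. The balance of all probes turned with spike-in scaling, to 6131 higher and 4363 lower. Leaving out 1 array at a time, 5 of the 9 genes stayed called higher and 0 lower, with 4994 to 5122 probes higher and 5106 to 6159 lower, 11 to 12 p53 targets higher and 6 to 7 lower, 7 regulators higher and 5 to 6 lower, and 7 to 8 cell cycle partners higher and 2 lower. The log2 difference then ranged from 5.44 to 6.71 for TP63, 4.54 to 4.79 for SFN, 3.39 to 3.76 for PERP, 2.22 to 2.72 for CDKN1A, 1.65 to 2.11 for GADD45A, 1.06 to 1.36 for the MDM2 probe spotted 10 times and -1.38 to -0.77 for the MDM4 probe of the p53-binding domain.

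The replicate numbers gave no sign of pairing the arrays. Same-numbered arrays had deviations from their line means that correlated at -0.27, -0.09 and -0.22, and no array correlated best with its own number. With 3 arrays per line, and pLB replicate 1 on another slide than replicates 2 and 3, this cannot show that the sorts were unpaired. With the replicate number as a block, 4986 probes were called higher and 5383 lower, the same 5 genes were called, and the MDM4 probe of the p53-binding domain was not (limma, adjusted p = 0.0837). Signals near background limit what can be said of TP63 and CDKN1A in pLUM.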
